A study of Homo sapiens with 6 samples.

Results

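Protein palmitoylation is the attachment of a long-chain fatty acid to a cysteine through a thioester bond, and it holds many signalling proteins at membranes. The enzymes that add the lipid are the DHHC acyltransferases, named for a conserved motif of their cysteine-rich domain and encoded by the ZDHHC genes. Because the bond can be cut again, thioesterases such as LYPLA1 (also called APT1), LYPLA2 (APT2) and the ABHD17 proteins release proteins from membranes, and PPT1 does the same during breakdown in the lysosome. The N-myristoyltransferases NMT1 and NMT2 attach myristate to an N-terminal glycine through a stable amide bond, often on proteins that are palmitoylated next to it.

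Their transcripts were measured on 6 Affymetrix arrays in MDA-MB-231, a triple-negative breast cancer line long established in culture. In 3 samples the cells had received a small interfering RNA (siRNA) against SDC1, which encodes the cell-surface proteoglycan syndecan-1, and in 3 a negative control siRNA. Every sample was transfected and untransfected cells were not analysed here, so each change is relative to the control siRNA. The siRNA lowers the transcript and does not delete the gene. The design text calls the replicates independent without saying that they came from separate cultures, so p-values measure the spread between these samples. The enzymes were chosen by gene symbol, as every ZDHHC gene read by a probe set that the array annotation ties to a single gene, plus named thioesterases and N-myristoyltransferases. This gave 31 of the 19775 genes measured: 23 DHHC acyltransferases, 6 thioesterases and 2 N-myristoyltransferases. PPT2 has no such probe set. The family was taken up with the fold changes of this same contrast known, so its fold changes and adjusted p-values describe these arrays and are not independent support for a change in the family.

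The values are log2 expression per probe set relative to its median over the 6 arrays. They show differences between arrays but no expression level, beyond a coarse brightness class that the numeric steps of the values reveal. Each fold change compares SDC1 siRNA with control siRNA on the log2 scale, positive where SDC1 siRNA was higher, and its standard error (SE) comes from limma, with n = 3 arrays per group. A gene is called where its Benjamini-Hochberg adjusted p over all 19775 genes is below 0.05. SDC1, the targeted gene, lay between 1.09 and 1.32 on the control arrays and between -1.43 and -1.14 after SDC1 siRNA, leaving 18.7% of the control transcript. Poly-A spike-in controls set apart 3 arrays with a high mean (control replicate 1 and SDC1 siRNA replicates 1 and 2, between 0.39 and 0.68) from 3 with a low one (between -0.47 and -0.43). Both sets hold both groups. Markers gave no check of the cell line, since levels are not among the values: 6 of 7 mesenchymal, 6 of 8 luminal breast, 3 of 4 endothelial, 1 of 6 fibroblast and 0 of 4 leukocyte markers were in the brightest class.

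The promoters of the enzymes with the largest rises, ZDHHC20, ZDHHC21 and ZDHHC23, are printed with that of NMT1, which fell, so that their sequence can be read beside the values. The enzyme that fell most, LYPLA1, has no window among those used here. Each run covers 250 bases before to 50 bases after a transcription start annotated by RefSeq in GRCh38.p14. They lie at chr13:21459254-21459553 (minus strand), chr9:14693383-14693682 (minus strand), chr3:113947763-113948062 (plus strand, the first listed of 2 windows for ZDHHC23) and chr17:45061067-45061366 (plus strand). Capitals mark matches on either strand to the GC box GGGCGG, the ETS motif CCGGAAG, the NRF1 half-site TGCGCA, the CCAAT box, the TATA box motif TATAAA or the E-box motif CACGTG.
ZDHHC20: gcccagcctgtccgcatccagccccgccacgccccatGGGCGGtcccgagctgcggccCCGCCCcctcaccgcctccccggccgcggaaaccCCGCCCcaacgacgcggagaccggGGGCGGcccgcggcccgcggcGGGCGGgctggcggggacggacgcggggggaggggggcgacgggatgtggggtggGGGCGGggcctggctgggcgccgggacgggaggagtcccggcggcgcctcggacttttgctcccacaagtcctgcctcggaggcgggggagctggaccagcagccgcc
ZDHHC21: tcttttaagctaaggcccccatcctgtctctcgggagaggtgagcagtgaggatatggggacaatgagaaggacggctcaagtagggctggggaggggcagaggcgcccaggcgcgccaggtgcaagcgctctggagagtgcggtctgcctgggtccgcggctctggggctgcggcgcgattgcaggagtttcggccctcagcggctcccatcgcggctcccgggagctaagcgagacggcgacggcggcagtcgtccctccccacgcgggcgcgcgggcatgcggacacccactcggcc
ZDHHC23: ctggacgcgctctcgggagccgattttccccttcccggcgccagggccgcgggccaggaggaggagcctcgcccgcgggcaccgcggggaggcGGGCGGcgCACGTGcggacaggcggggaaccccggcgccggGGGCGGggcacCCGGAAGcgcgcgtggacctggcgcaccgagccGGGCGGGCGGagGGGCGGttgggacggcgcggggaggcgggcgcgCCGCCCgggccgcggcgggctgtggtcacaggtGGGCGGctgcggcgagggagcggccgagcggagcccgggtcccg
NMT1: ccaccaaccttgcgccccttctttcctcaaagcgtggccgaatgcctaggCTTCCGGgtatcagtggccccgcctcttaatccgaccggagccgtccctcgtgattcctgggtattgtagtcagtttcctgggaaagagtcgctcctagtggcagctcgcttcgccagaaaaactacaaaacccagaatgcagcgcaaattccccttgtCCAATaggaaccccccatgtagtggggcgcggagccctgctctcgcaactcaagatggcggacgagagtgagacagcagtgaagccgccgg

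The ZDHHC20 window held 6 GC box matches at 81.0% GC, and the ZDHHC23 window held 7, some of them overlapping, at 83.0% GC with 1 ETS and 1 E-box match. The ZDHHC21 window had 0 matches to any of these motifs at 69.0% GC, and the NMT1 window held 1 ETS and 1 CCAAT match at 58.3% GC. Thus the enzymes that rose most have no motif of this short list in common. Of the 24 enzymes with a window in the table, 18 held a GC box against 45.0% of 35116 windows of all genes, 7 an ETS match against 10.3%, 7 a CCAAT match against 34.6%, 2 each an NRF1 match (8.24%) and an E-box (7.26%), and 0 a TATAAA match (11.5%). Median GC content was 66.3% over the 24 windows and 58.7% over all windows. Each enzyme entered with 1 window, the first listed, although the 24 have 28. The background counts every window of a gene, so the sides are not fully alike. A match is a description of letters and shows no binding.

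After SDC1 siRNA, 8 of the 23 DHHC acyltransferases rose and 3 fell. Of the 6 thioesterases 1 rose and 1 fell, and of the 2 N-myristoyltransferases 1 fell. Of the 31 enzymes, 14 were called (45.2%), against 28.2% of all genes: 9 were higher, where 13.0% of all genes were, and 5 lower, where 15.1% were. Since 21 of the 31 lay in the brightest class, the nearer background is that class, in which 41.4% of genes were called, 18.1% higher and 23.3% lower. Of the 21 bright enzymes, 7 were higher and 4 lower, together 52.4%. The contrast was known when the family was taken up, and nothing is read from these shares. At 1.5-fold or more, 3 enzymes were higher and 1 lower, 12.9% against 7.0% of all genes. For 19 of 31 enzymes (61.3%) every array of one group lay above every array of the other, as it did for 41.8% of all genes. Of the 8259 genes set apart in this way 2711 were not called, against 5568 genes called. Nearly all called genes thus share it, and it adds nothing to a call. The median fold change was 0.03 over the enzymes and 0.00 over all genes, and the median size of the change 0.17 and 0.13. The fold change had the same sign in both spike-in sets for 22 of the 31 enzymes and for 14016 of the 19775 genes. All 14 called enzymes are among the 22, and all 5568 called genes likewise kept their sign, so the count is not particular to the enzymes.

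**Figure D1:**
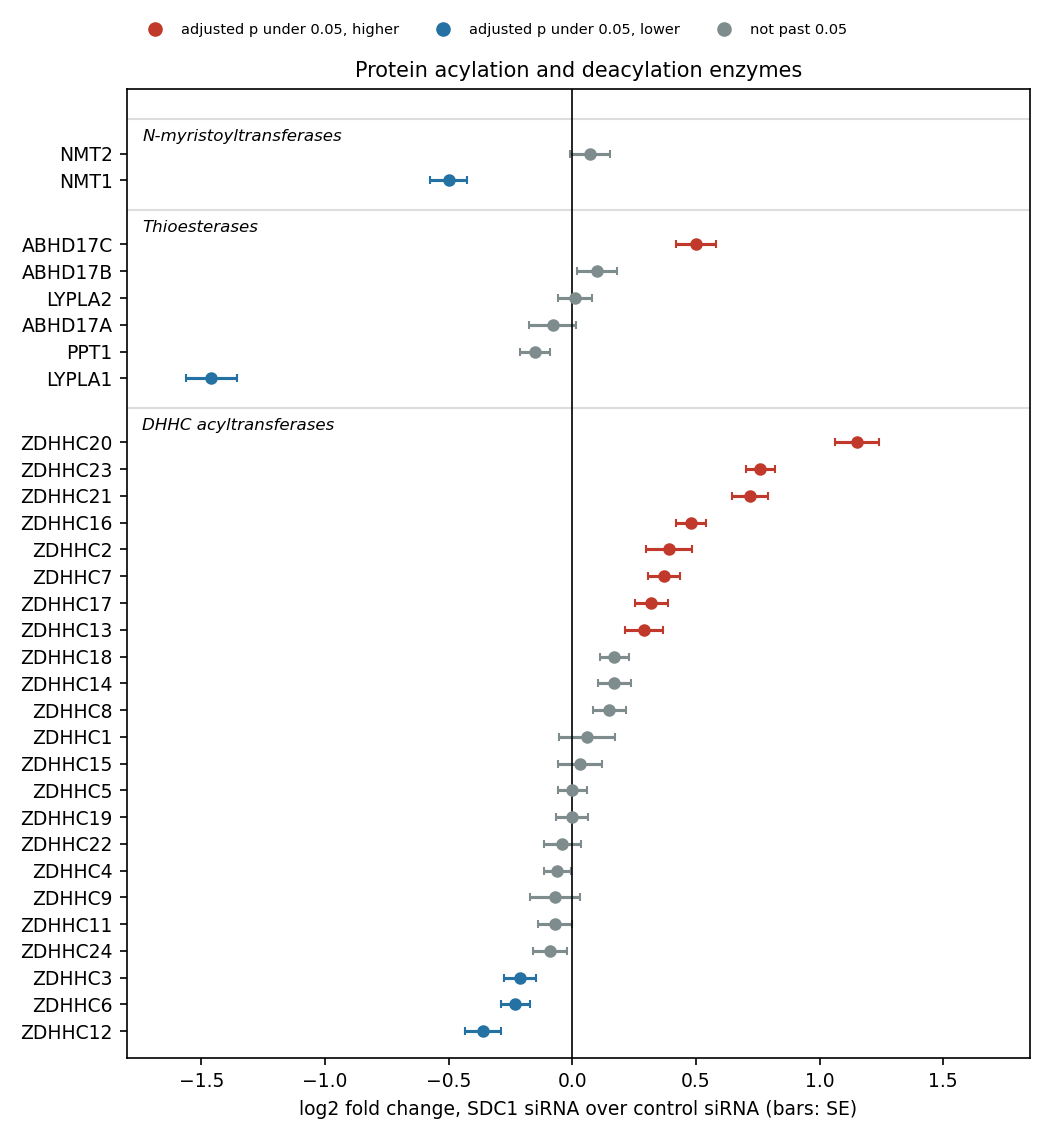
Log2 fold change (SDC1 siRNA over control siRNA, x axis) of each of the 31 enzymes, grouped by role, with bars for the SE of the limma fit and colours for the call. ZDHHC20 stands highest at 1.15 and LYPLA1 lowest at -1.46, and 17 enzymes did not pass the threshold.

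ZDHHC20, a plasma membrane acyltransferase known to palmitoylate the epidermal growth factor receptor, rose most. It stood at -0.44, -0.59 and -0.55 in control replicates 1 to 3 and at 0.76, 0.44 and 0.65 in SDC1 siRNA replicates 1 to 3. The groups were far apart, with a gap wider than the range within either. Its fold change was 1.15 (SE 0.0895, adjusted p = 4.32e-05), a 2.21-fold rise, with 1.05 among the arrays of high spike-in signal and 1.22 among those of low signal. A dimmer probe set of ZDHHC20 gave 0.37 (adjusted p = 0.0855 over all probe sets), and the mean of both probe sets gave 0.76.

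ZDHHC23, first described as a partner of neuronal nitric oxide synthase, rose by 0.76 (SE 0.0588, adjusted p = 4.18e-05), or 1.69-fold. Its single probe set read -0.33, -0.41 and -0.41 on the control arrays and 0.41, 0.39 and 0.33 after SDC1 siRNA. No other called enzyme with 1 probe set had so large a rise, and the spread within its groups was small (SD 0.045 and 0.039).

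ZDHHC21, known to palmitoylate the kinase FYN in skin, rose by 0.72 (SE 0.0733, adjusted p = 0.000171) on the mean of its brightest probe sets. The control arrays were at -0.45, -0.53 and -0.30 and the SDC1 siRNA arrays at 0.24, 0.31 and 0.32, again without overlap. The brighter probe sets agreed in sign, at 0.78 and 0.65, whereas the dimmer ones did not follow. Of 9 ZDHHC21 probe sets, 2 were called higher and 1 lower (-0.41, adjusted p = 0.0258 over all probe sets), and with all but a cross-hybridising one averaged the gene was at 0.07 (adjusted p = 0.453). The called rise of ZDHHC21 is that of its bright probe sets.

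ZDHHC16, an acyltransferase of the endoplasmic reticulum that is known to palmitoylate ZDHHC6, rose by 0.48 (SE 0.0614, adjusted p = 0.00057). It read -0.20, -0.22 and -0.32 on the control arrays and 0.20, 0.23 and 0.26 after SDC1 siRNA. Its known substrate ZDHHC6, which palmitoylates calnexin, fell by 0.23 (SE 0.0592, adjusted p = 0.0193), from 0.13, 0.10 and 0.08 to -0.08, -0.11 and -0.19. The groups did not overlap for either gene, but the ZDHHC6 call was lost without any of 4 arrays, SDC1 siRNA replicate 2 or 3 or control replicate 1 or 2, with adjusted p-values between 0.0514 and 0.0602.

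ZDHHC7, a Golgi acyltransferase of G protein alpha subunits, rose by 0.37 (SE 0.0643, adjusted p = 0.00304), from -0.11, -0.20 and -0.22 to 0.25, 0.20 and 0.11. Its close relative ZDHHC3, also of the Golgi, was called lower at -0.21 (SE 0.0648, adjusted p = 0.0379). This is the mean of 4 probe sets classed as bright that did not move alike. One of them was called, with 0.28, 0.39 and 0.42 on the control arrays and -0.47, -0.28 and -0.52 after SDC1 siRNA (-0.79, adjusted p = 0.000377 over all probe sets). The other ZDHHC3 probe sets gave -0.19, -0.01 and 0.12, none of them called. The ZDHHC3 call was lost without SDC1 siRNA replicate 1 or 3 or any of the control replicates (adjusted p from 0.0716 to 0.0981). With brightness classed from all 6 arrays, which leaves out the called probe set, the fold change was -0.03 (adjusted p = 0.734).

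The ankyrin-repeat enzymes ZDHHC17 and ZDHHC13, which bind huntingtin, were both called higher. ZDHHC17 read -0.14, -0.30 and -0.13 on the control arrays and 0.14, 0.13 and 0.13 after SDC1 siRNA, a rise of 0.32 (SE 0.0665, adjusted p = 0.00667). All 3 ZDHHC17 probe sets were called higher, at 0.32, 0.43 and 0.46, across all brightness classes. ZDHHC13 rose by 0.29 (SE 0.0773, adjusted p = 0.0235), from -0.06, -0.05 and -0.23 to 0.12, 0.29 and 0.11, with 1 probe set at 0.47 and another, not called, at 0.11. The call was lost without SDC1 siRNA replicate 2 (0.23, adjusted p = 0.084), without control replicate 3 (0.23, adjusted p = 0.0733) and with the spike-in set as a block (0.26, adjusted p = 0.0529).

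ZDHHC2, an acyltransferase of tetraspanins and of the receptor CKAP4, had probe sets that moved in opposite directions. Its bright probe set, which stands for the gene, read -0.24, -0.34 and -0.05 on the control arrays and 0.25, 0.05 and 0.24 after SDC1 siRNA, a rise of 0.39 (SE 0.0921, adjusted p = 0.013). A dimmer one rose by 0.38 (adjusted p = 0.0171 over all probe sets). Yet another read 0.50, 0.52 and 0.38 on the control arrays and -0.38, -0.46 and -0.61 after SDC1 siRNA, a fall to 51.6% of control (-0.95, adjusted p = 0.000126 over all probe sets). The last ZDHHC2 probe set was at -0.20 and not called. Averaged over all of them the gene was at -0.09 (adjusted p = 0.323), so the direction of ZDHHC2 depends on the probe set read.

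ZDHHC12, which palmitoylates the synaptic scaffold gephyrin, fell by 0.36 (SE 0.0723, adjusted p = 0.00608), from 0.21, 0.35 and 0.12 to -0.12, -0.12 and -0.16, on its only probe set. The groups did not overlap, and the SDC1 siRNA arrays lay close together.

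**Figure D2:**
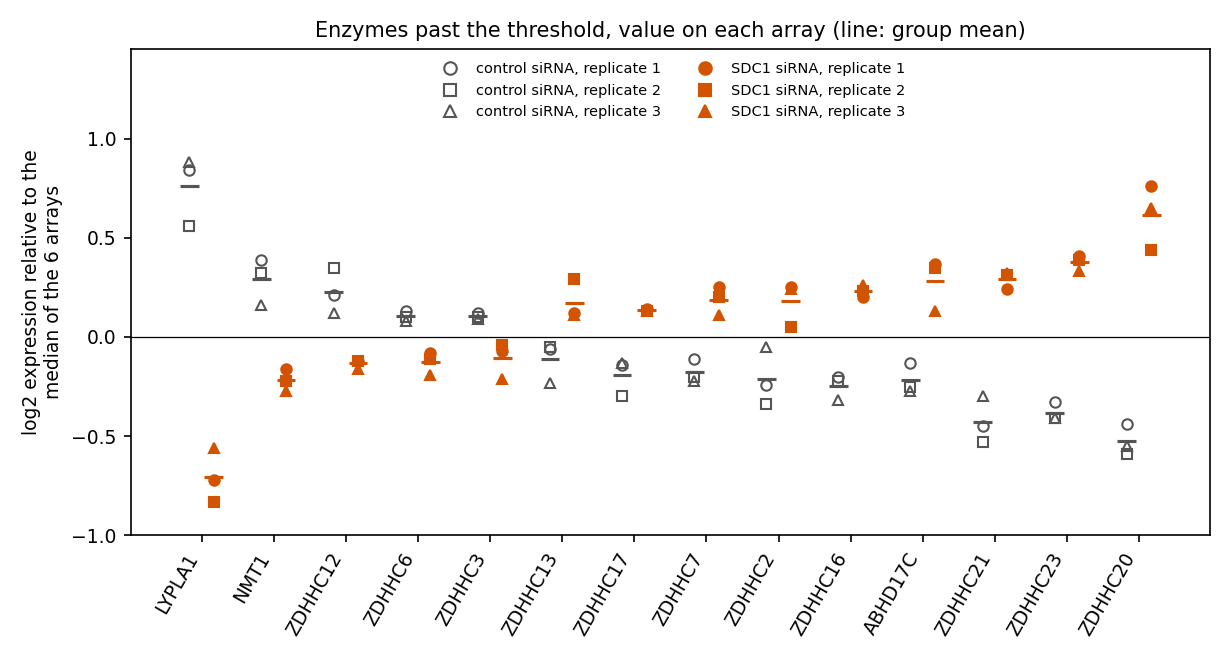
Log2 expression relative to the median of the 6 arrays (y axis) of the 14 called enzymes on each array, open symbols for control siRNA and filled ones for SDC1 siRNA, with a line for each group mean. No called enzyme has overlapping groups, as holds for nearly all called genes, and ZDHHC3, ZDHHC6 and ZDHHC13 show the narrowest gaps beside ZDHHC2.

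The other 12 DHHC acyltransferases were not called. Those nearest the threshold were ZDHHC18 at 0.17 (adjusted p = 0.0638), ZDHHC14 at 0.17 (adjusted p = 0.086) and ZDHHC8 at 0.15 (adjusted p = 0.141), whose groups did not overlap. ZDHHC18 passed when the variance prior was robust and followed brightness (adjusted p = 0.0381). A single ZDHHC14 probe set was called, at 0.36 (adjusted p = 0.0347 over all probe sets), while its dimmest was at -0.21. ZDHHC9, which with GOLGA7 palmitoylates Ras proteins, was at -0.07 (SE 0.101), and the plasma membrane enzyme ZDHHC5 at 0.00 (SE 0.0583), neither of them called. ZDHHC24 (-0.09), ZDHHC4 (-0.06), ZDHHC22 (-0.04), ZDHHC19 (0.00), ZDHHC15 (0.03) and ZDHHC1 (0.06) had adjusted p-values from 0.4 to 0.989. ZDHHC15 was the only enzyme in the dimmest class.

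ZDHHC11 was at -0.07 (adjusted p = 0.543) on its only single-gene probe set, a cross-hybridising one. Both probe sets that the annotation ties to ZDHHC11 and its near-identical neighbour ZDHHC11B together fell. One read 0.63, 0.55 and 0.56 on the control arrays and -0.70, -0.64 and -0.55 after SDC1 siRNA (-1.21, SE 0.0734, adjusted p = 2.09e-05 over all probe sets), to 43.2% of control. The other was at -0.74 (SE 0.121, adjusted p = 0.00299). These probe sets cannot tell the copies apart and enter no count given here.

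Among the thioesterases, LYPLA1, a cytosolic acyl-protein thioesterase, changed most and was left at 36.2% of control. Its log2 value differed between the groups by -1.46 (SE 0.104, limma adjusted p = 2.64e-05). It read 0.84, 0.56 and 0.88 on the control arrays and -0.72, -0.83 and -0.56 after SDC1 siRNA, and its lowest control array lay more than 1 log2 unit above its highest SDC1 siRNA array. A second, cross-hybridising probe set gave -1.40, from 0.62, 0.73 and 0.70 to -0.62, -0.71 and -0.82. Within the spike-in sets the log2 fold change of LYPLA1 was -1.62 (high signal) and -1.28 (low signal). LYPLA2, its close paralogue, was at 0.01 (SE 0.0682, adjusted p = 0.965), and its 4 probe sets lay between -0.04 and 0.05. All of these LYPLA2 probe sets are of the cross-hybridising kind.

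ABHD17C, of the family that removes palmitate from N-Ras and PSD-95, rose by 0.50 (SE 0.0824, adjusted p = 0.00214). It read -0.13, -0.25 and -0.27 on the control arrays and 0.37, 0.35 and 0.13 after SDC1 siRNA, without overlap. Its relatives ABHD17A at -0.08 (adjusted p = 0.618) and ABHD17B at 0.10 (adjusted p = 0.453) were not called, and ABHD17B gave -0.08 in the high and 0.29 in the low spike-in set. The lysosomal thioesterase PPT1 was at -0.15 (SE 0.0612, adjusted p = 0.118), with groups that did not overlap.

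NMT1, the main N-myristoyltransferase of most cells, fell by 0.50 (SE 0.0748, adjusted p = 0.00121), to 70.5% of control. Control arrays read 0.39, 0.32 and 0.16 and SDC1 siRNA arrays -0.16, -0.22 and -0.27. All 3 NMT1 probe sets were called lower, at -0.63, -0.59 and -0.28, and the gene was at -0.28 (adjusted p = 0.013) where brightness was classed from all 6 arrays, which keeps the last of them alone. NMT2 was at 0.07 (SE 0.081, adjusted p = 0.565), with probe sets from -0.02 to 0.32, none of them called. The difference between NMT1 and NMT2, like that between LYPLA1 and LYPLA2, was not itself tested.

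**Figure D3:**
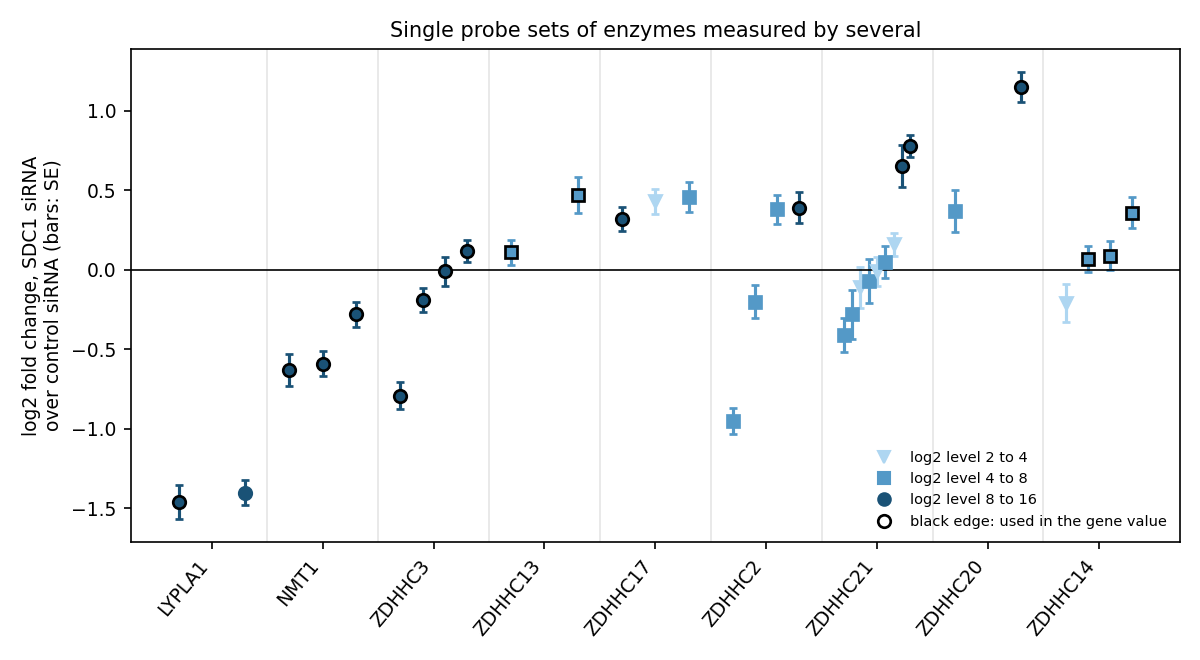
Log2 fold change of single probe sets (y axis, bars for the SE) for 9 enzymes with several, shaped and coloured by brightness class, with a black edge where the probe set enters the gene value. LYPLA1, NMT1 and ZDHHC17 move one way throughout, while ZDHHC2 runs from -0.95 to 0.39 and ZDHHC21 from -0.41 to 0.78.

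Over single probe sets, the enzymes had 75, of which 24 were called (32.0%), against 19.8% of all probe sets: 14 higher and 10 lower. That background also holds unnamed and several-gene probe sets and is not matched for brightness, so nothing is read from the difference. Of the 21 enzymes with several probe sets, ZDHHC2 and ZDHHC21 alone had calls in both directions.

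**Figure D4:**
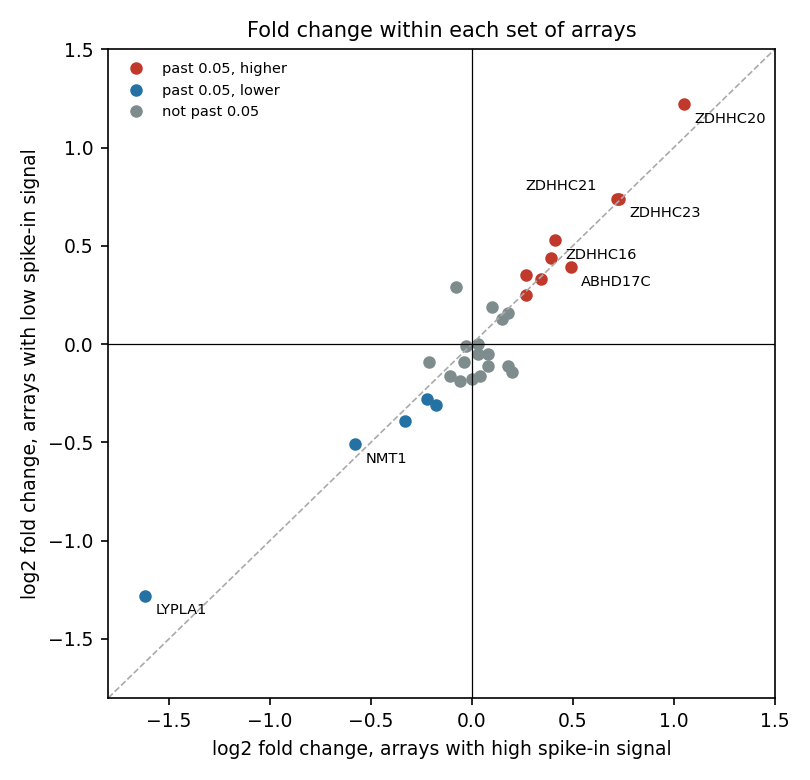
Log2 fold change of the 31 enzymes within the arrays of high spike-in signal (x axis) and of low spike-in signal (y axis), coloured by the call, with a dashed line of equality. The 14 called enzymes lie in the quadrants of equal sign, as all 5568 called genes do, and enzymes not called such as ZDHHC1 (0.20 and -0.14) and ZDHHC15 (0.18 and -0.11) differ in sign.

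Genes that supply or assist these enzymes, and proteins that carry the lipids, were read from the same limma results in 8 lists. Of their 90 measured genes 18 rose and 18 fell (20.0% each), against 13.0% and 15.1% of all genes and 18.1% and 23.3% of the brightest class, in which most of them lie. In the list for palmitoyl-CoA supply, 6 of 11 measured genes rose and 1 fell, 54.5% and 9.09%, with a median of 0.31 against 0.00 for all genes; 10 of the 11 are in the brightest class. The 6 became 4 with all single-gene probe sets averaged and 3 with cross-hybridising ones included, and the 1 that fell became 2 without SDC1 siRNA replicate 3. ELOVL6, which elongates palmitate, rose by 0.52, the fatty acid synthase FASN by 0.51 (a dimmer, cross-hybridising probe set gave -0.15), the acyl-CoA synthetase ACSL1 by 0.48 and the acyl-CoA-binding protein DBI by 0.48. A dimmer ELOVL6 probe set gave 0.20 and was not called, and all DBI probe sets are of the cross-hybridising kind. Acetyl-CoA carboxylase rose in both forms, ACACA by 0.44 and ACACB by 0.31. The synthetase ACSL5 fell by 0.48 (SE 0.0577, adjusted p = 0.000405), and ACLY, ACSL4, ACSL6 and SCD were not called.

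Of 3 partners of the acyltransferases, 1 fell (33.3%, against 15.1% of all genes and 23.3% of the brightest class). SELENOK, the selenoprotein cofactor of ZDHHC6, fell by 0.25 (SE 0.0583, adjusted p = 0.013), while GOLGA7, the partner of ZDHHC9, was at -0.18 (adjusted p = 0.0502) and GOLGA7B at 0.08 (adjusted p = 0.61). The SELENOK call was lost without SDC1 siRNA replicate 1, and 2 partners were called lower under 5 of the alternatives. HHAT (0.08), which palmitoylates Hedgehog proteins, and HHATL (0.20), both of the family named membrane-bound O-acyltransferases, were not called. METAP1 (0.18), METAP2 (-0.05) and ACBD6 (0.00), which prepare or assist N-myristoylation, were not called either, though 1 of the 3 was called higher under 2 alternatives.

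Of 7 other deacylases 1 rose and 2 fell (14.3% and 28.6%, against 13.0% and 15.1% of all genes). LYPLAL1, a relative of LYPLA1, fell by 0.64 (SE 0.0657, adjusted p = 0.000169), the mean of probe sets at -0.88 and -0.41. ABHD13 fell by 0.78 (SE 0.0855, adjusted p = 0.000254), with probe sets at -1.07 and -0.48. SIRT6, which also removes long-chain acyl groups from lysines, rose by 0.29 (adjusted p = 0.0239), a call lost without control replicate 1 or 2. A brighter, cross-hybridising SIRT6 probe set gave 0.14 and was not called. Under 3 alternatives 2 of these deacylases were called higher. HDAC11 (0.22), ABHD10 (0.22), SIRT2 (0.11) and NOTUM (0.06) were not called.

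Of 9 measured prenylation genes, 2 rose (22.2%), against 13.0% of all genes and 18.1% of the brightest class, which holds 8 of them. Under 3 alternatives in the choice of probe sets 1 was called lower. ICMT, which methylates the prenylated cysteine of Ras-family proteins, rose by 1.29 (SE 0.0692, adjusted p = 6.09e-06). A cross-hybridising probe set of ICMT gave 1.26 and its dim one -0.02. CHML, a Rab escort protein, rose by 0.52 (SE 0.0625), and its dimmer probe sets lay between -0.04 and 0.48. The prenyltransferase subunits FNTA (-0.15), FNTB (-0.02), PGGT1B (-0.12), RABGGTA (0.18) and RABGGTB (0.04) were not called.

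Proteins known to carry these lipids were called in both directions. Among palmitoylated proteins 5 of 39 measured genes rose and 10 fell, 12.8% and 25.6% against 18.1% and 23.3% of the brightest class, which holds 36 of them. The median was -0.04. The 5 became 3 without SDC1 siRNA replicate 2 and 8 with all probe sets averaged, cross-hybridising ones included. CD274, the immune checkpoint ligand PD-L1, fell by 0.81 (SE 0.0858), the G protein subunit GNAQ by 0.49 and the adhesion receptor CD44 by 0.68, and GNAI1 rose by 0.56. EGFR, the ZDHHC20 substrate, fell by 0.41 (SE 0.064, adjusted p = 0.00158). CKAP4 (0.07), a ZDHHC2 substrate, HRAS (0.04) and CANX (-0.14), the ZDHHC6 substrate, were not called. Of the tetraspanins in the list, CD82 was called lower at -0.73, and CD81 (0.41) and CD151 (0.29) were called higher. CD9, at -0.15, was not called. Among myristoylated proteins 6 of 22 rose and 6 fell (27.3% each), with a median of 0.01. Of all genes 13.0% rose and 15.1% fell, and of the brightest class, which holds 19 of the 22, 18.1% and 23.3%. Both lists hold FYN, LYN, YES1, GNAI1, GNAI2 and GNAI3. The called myristoylated proteins include BASP1 at 0.54, ABL2 at -0.47 and GNAI2 at -0.60, and SRC was at -0.20 (adjusted p = 0.0838). A dimmer BASP1 probe set gave 0.06 and was not called.

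**Figure D5:**
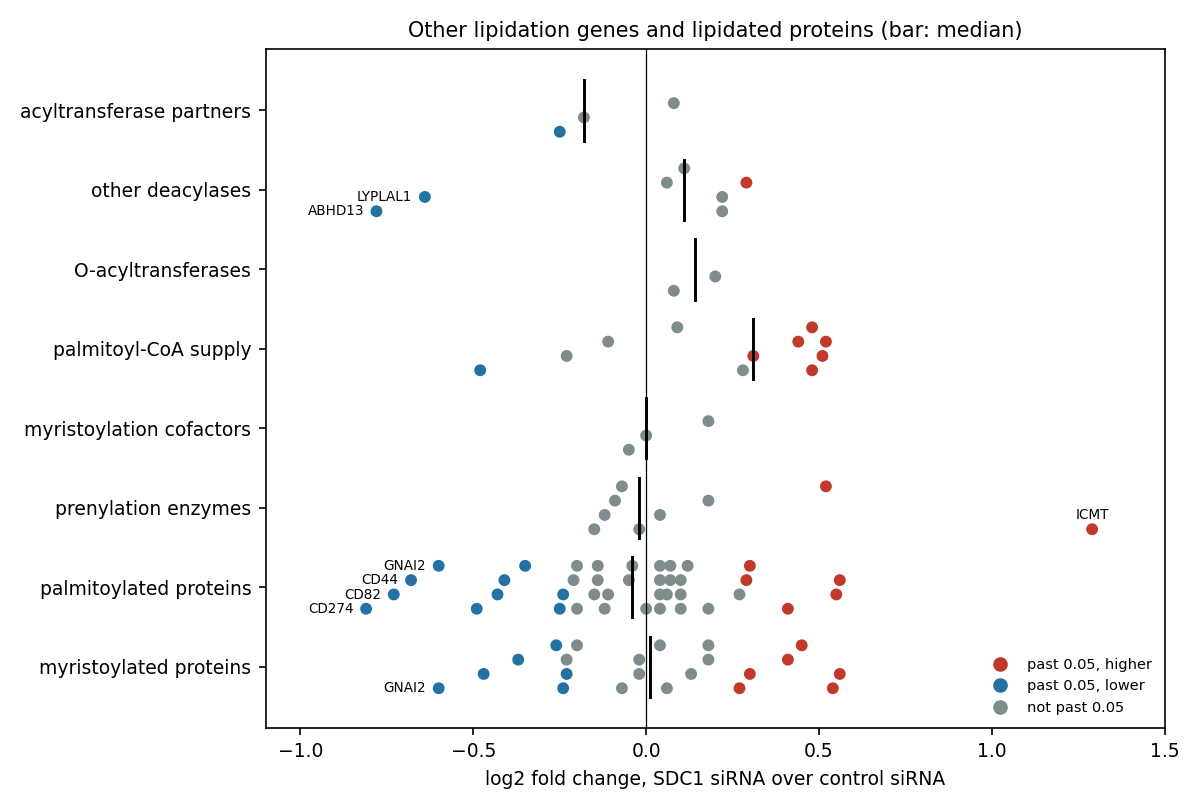
Log2 fold change (x axis) of each measured gene in 8 lists of other lipidation genes and of lipidated proteins, coloured by the call, with a bar for the median of each list. Genes past 1.5-fold are named: ICMT stands apart at 1.29, and palmitoyl-CoA supply has the highest median at 0.31.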

How the data were processed

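The authors deposited log2 expression values for 54675 probe sets on 6 arrays. RMA is named in the submitters' processing notes with no version, and the sources used here give no further step. Each probe set has a median within 1e-06 of 0, which shows that the log2 scale as deposited was centred per probe set. GEO's platform annotation gave the gene names (41097 probe sets with a single gene, of which 41043 matched a RefSeq table of GRCh38.p14 that gave current symbols). The array annotation names no build.

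The step of the values at or above the median placed each probe set at a log2 level of 2 to 4, 4 to 8 or 8 to 16. This placement is approximate, since values can share a coarser step than their level gives, as did 15.7% of the last class. A dimmer probe set can be placed too bright in this way, and the share so misplaced was not measured. The brightest class may therefore hold dimmer probe sets. Single-gene probe sets of a gene's brightest class were averaged to give its value, and cross-hybridising ones (_x_at) entered where no other existed. Differences were tested across all genes by lmFit and eBayes of limma 3.58.1 (R 4.3.3), 2-sided and without covariates, SDC1 siRNA minus control siRNA, with Benjamini-Hochberg adjustment, and likewise over all probe sets but the 62 controls. The script was checked on simulated data. The number of arrays limits precision, with a median SE of 0.0748 over all genes.

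The members and lists were chosen with earlier results of these data known. By rule, all 31 members are named, with values on each array for those called at 1.5-fold or more or with probe sets far apart, and up to 4 genes of each list by lowest p, plus all of the small lists. Array values of the other called members and of shared probe sets, and further genes of the lists, were added after their values were seen. The spike-in sets were read from the data, and the labels name no batch.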

Additional observations from a re-analysis of the deposited data

How the results depend on the processing

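Under 14 alternatives, 6 of which leave out an array each, SDC1 stayed between -2.47 and -2.33, and 9 of the 14 called enzymes kept their call wherever a value could be had. The exceptions are ZDHHC2, ZDHHC3, ZDHHC6, ZDHHC13 and ZDHHC21. ZDHHC2 changed sign to -0.09 with all single-gene probe sets averaged, with or without cross-hybridising ones, because its probe sets oppose each other, and ZDHHC21 was then at 0.07 or 0.08. The number of enzymes called lower was 5, and between 3 and 4 without 1 array (3 without SDC1 siRNA replicate 3 or control replicate 1 or 2). It was 4 with brightness classed from all 6 arrays. The number called higher was between 7 and 10. Of the 17 enzymes not called, 16 were called under none of the alternatives. The classing of brightness over all 6 arrays was chosen after seeing the data.

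With the replicate number as a block, 5457 genes were called against 5568, with 9 enzymes higher and 5 lower as before. Deviations of same-numbered arrays from their group means correlated at 0.01, 0.08 and 0.10 across genes, and control replicate 1 correlated best with SDC1 siRNA replicate 2 (0.04), so the numbers are not taken as a pairing. Centring each array on its median gave 5560 calls and the same counts of enzymes. Without background signal, no enzyme could be called detected or absent.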

Other observations

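PPT2, a lysosomal thioesterase related to PPT1, is read by probe sets that the annotation shares with the neighbouring EGFL8. The dimmer ones are also shared with the read-through transcript of both genes. The brightest of them read 0.19, 0.12 and 0.14 on the control arrays and -0.20, -0.12 and -0.12 after SDC1 siRNA, a log2 fold change of -0.30 (SE 0.0686, limma adjusted p = 0.0159 over all probe sets). The others were at -0.13 (adjusted p = 0.371) and -0.19 (adjusted p = 0.138). These signals cannot be assigned to PPT2 alone.

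Some probe sets of one enzyme lay far apart. The ZDHHC2 probe sets at -0.95 and 0.39, the ZDHHC3 probe set at -0.79 beside others from -0.19 to 0.12, and the shared ZDHHC11 and ZDHHC11B probe sets at -1.21 and -0.74 beside a ZDHHC11 one at -0.07 are examples. Probe sequences were not used here.

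Of 7 mesenchymal breast cancer line markers 2 rose and 3 fell, and of 8 luminal markers 2 rose and 2 fell, where 28.2% of all genes and 41.4% of the brightest class, which holds 6 markers of each list, were called. Among markers of other cell types, 1 of 4 measured leukocyte markers was called (CD14, -0.46), 0 of 4 endothelial markers and 1 of 6 fibroblast markers (COL1A1, -0.77). Their part in the enzyme results was not tested.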
